A study of Mus musculus with 8 samples.

Results

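The genes described here are the nuclear genes of oxidative phosphorylation in mouse spermatogonia, grouped by the complex their proteins build. They were chosen by a rule on symbols, as the rows named for subunits of complexes I to V (Nduf, Sdha to Sdhd, Uqcr, Cyc1, Cycs, Cox4 to Cox8 and Atp5). The rule was set with earlier results of these data known. Of 17589 genes in the deposited table, 92 matched. A symbol marked as a pseudogene was left out, and 89 of the remaining 91 had a mean of at least 1 FPKM, a level that counts fragments relative to transcript length and library size. These 89 comprised 35 genes of complex I, 4 of complex II, 9 of complex III, 14 of complex IV, 15 of complex V, the cytochrome c gene Cycs, 10 assembly factors and Atp5l2, which the reference annotation lists as a processed pseudogene. Just inside the minimum were Ndufaf3 at a mean of 2.14 FPKM and Atp5l2 at 4.18 FPKM. Just outside it were Ndufa12 at 0.474 FPKM and Ndufa4l2 at 0.272 FPKM. A further 9 symbols of the family, Cox4i1 and Ndufb1 among them, had no row under those names and were not analysed under them. Atp5md and Atp5if1, also among the 9, were looked for by their older symbols Usmg5 and Atpif1 in the list of other respiratory chain genes below.

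The study compared germ cells of mice lacking KDM1A, a demethylase of lysine 4 on histone H3, with germ cells of controls. All animals were C57BL/6 mice aged 6 dpp (days after birth) that carried the GOF/deltaPE-Oct4/GFP reporter, in which the Oct4 distal enhancer drives GFP in primitive germ cells. GFP-positive cells were sorted from dissociated testes, and 4 control and 4 knockout libraries of mRNA were sequenced. The knockout was conditional, by a recombinase and over exons not given in the sources used here. The labels do not say whether the libraries came from separate animals, so the spread between them may be technical.

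Oxidative phosphorylation moves electrons from NADH and succinate through complexes I to IV of the inner mitochondrial membrane to oxygen, and complex V uses the resulting proton gradient to make ATP. Coenzyme Q and cytochrome c carry electrons between the complexes. Part of each of complexes I, III, IV and V is encoded in mitochondrial DNA and is not matched by the symbols above, whereas complex II is wholly nuclear. Assembly factors are needed to build the complexes without being part of the finished enzyme. Male germ cells are known to use their own isoforms of several subunits, such as COX8C, COX7B2, COX6B2 and the testis cytochrome c CYCT.

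The libraries differed in depth and in makeup. Depth was read from the steps between low FPKM values, as 60500000 to 67000000 fragments for controls and 45000000 to 62750000 for knockouts. The lowest were knockout replicate 2 at 45000000 and knockout replicate 4 at 48250000. Only depths from 35000000 to 70000000 were searched, because multiples of a depth also give whole values, so absolute depths rest on that range. Kdm1a itself was at 53.7, 54.0, 92.0 and 48.1 FPKM in the controls and at 14.2, 14.1, 17.3 and 14.9 FPKM in the knockouts, 4.10-fold lower on average and below every control in every knockout. The microRNA Mir5105 alone took 61.3% to 77.1% of a control library's FPKM and 29.4% to 52.7% of a knockout's. Knockout replicate 2 stood apart, with 1642 transcript entries at 0 against 506 to 734 in the other libraries. Summed over 10 germ cell markers, FPKM ran from 1201 to 1377 (controls) and 1142 to 1329 (knockouts), with Lin28a, Zbtb16 and Sall4 lower and Tex101 higher. The 7 Sertoli cell markers summed to 8.11 to 22.9 FPKM (controls) and 9.73 to 30.1 FPKM (knockouts), with 0 called of 5 tested. The 3 endothelial markers present summed to 3.08 to 4.57 and 6.73 to 8.14 FPKM, and 1 of the 2 tested, Pecam1, was higher. The 2 erythroid markers present summed to 0.282 to 0.760 and 1.60 to 2.5 FPKM, with the hemoglobin gene Hbb-b1 at 0 in 1 control. Peritubular markers, 4 in all, summed to 2.47 to 4.98 and 2.62 to 4.24 FPKM, and the 1 Leydig cell and 1 macrophage marker present reached at most 2.16 and 2.36 FPKM. The part of these other cells in the results below was not tested. In such bulk libraries fewer cells of a type and less RNA per cell cannot be told apart.

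Promoter sequences are described first, since the nuclear genes of the respiratory chain are known for shared promoter elements bound by NRF1, YY1 and ETS factors. RefSeq promoter sequence on GRCm38.p6 was matched for 73 of the 89 genes, and the window ran from 250 bases before to 50 bases after the gene's start. The NRF1 element CGCATGCG, which reads the same on both strands, was in 16.4% of these promoters and in 4.32% of those of the 9733 tested genes matched. The YY1 element AAGATGGC was in 13.7% and 4.97%, on either strand. The ETS element CCGGAAG was in 23.3% and 20.1%, and the SP element GGGCGG in 42.5% and 66.5%. An ETS element can share bases with an SP element read on the opposite strand, and such promoters were counted under both. A match is a description of the letters only. Among the members called higher in the fit given below, 15 of 20 promoters held GGGCGG and 4 of 20 held the NRF1 element. Among those not called, 16 of 53 held GGGCGG and 8 of 53 the NRF1 element, and these shares were not tested against each other.

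The 250 bases before the start of 5 genes are printed, 5′ to 3′ on the gene's strand, with these elements in capitals. They show the X-linked Ndufa1 (chrX:37191239-37191488, minus strand), the complex I assembly factor Ndufaf4 (chr4:24897833-24898082, plus strand) and Cycs (chr6:50566570-50566819, minus strand), all higher in the knockout. They also set the germ cell isoform Cox7b2 (chr5:71548206-71548455, minus strand) beside its broadly expressed partner Cox7b (chrX:106015450-106015699, plus strand).
Ndufa1: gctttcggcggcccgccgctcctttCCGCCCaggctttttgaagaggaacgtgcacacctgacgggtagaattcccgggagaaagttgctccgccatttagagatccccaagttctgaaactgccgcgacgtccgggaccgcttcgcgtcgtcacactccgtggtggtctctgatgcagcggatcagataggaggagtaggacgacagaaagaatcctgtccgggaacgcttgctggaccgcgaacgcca
Ndufaf4: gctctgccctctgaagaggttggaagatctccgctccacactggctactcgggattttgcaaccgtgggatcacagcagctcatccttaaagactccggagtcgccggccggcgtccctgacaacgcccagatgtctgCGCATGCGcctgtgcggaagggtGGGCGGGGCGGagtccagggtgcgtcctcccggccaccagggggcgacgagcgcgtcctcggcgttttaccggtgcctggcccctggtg
Cycs: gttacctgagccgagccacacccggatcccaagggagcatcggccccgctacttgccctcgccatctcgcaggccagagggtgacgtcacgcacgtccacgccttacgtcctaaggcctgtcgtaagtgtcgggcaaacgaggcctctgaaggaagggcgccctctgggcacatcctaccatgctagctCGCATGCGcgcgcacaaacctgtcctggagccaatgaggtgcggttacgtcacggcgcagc
Cox7b2: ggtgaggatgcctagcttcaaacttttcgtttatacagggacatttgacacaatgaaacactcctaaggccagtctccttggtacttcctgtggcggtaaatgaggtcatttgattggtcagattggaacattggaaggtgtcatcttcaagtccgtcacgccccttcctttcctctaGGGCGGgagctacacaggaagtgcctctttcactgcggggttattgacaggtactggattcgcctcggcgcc
Cox7b: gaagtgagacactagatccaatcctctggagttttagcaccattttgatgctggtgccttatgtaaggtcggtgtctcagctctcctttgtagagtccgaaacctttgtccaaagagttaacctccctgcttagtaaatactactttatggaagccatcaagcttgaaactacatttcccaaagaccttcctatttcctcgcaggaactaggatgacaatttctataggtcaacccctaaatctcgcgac
The first holds an SP element on the opposite strand, the second an NRF1 element followed by overlapping SP elements, the third an NRF1 element and the fourth an SP element, while Cox7b holds none of the 4 within the bases printed. In the full window Ndufa1 had 29 CpG dinucleotides, Ndufaf4 28, Cycs 32, Cox7b2 10 and Cox7b 5. The median over the 73 matched members was 19 and that over all tested genes 22. The 3 germ cell or muscle isoforms of complex IV that were matched, Cox6b2, Cox7a1 and Cox7b2, had 7 to 10, below both medians.

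Of the 89 genes, 26 were higher in the knockout and 0 were lower, by limma on log2(FPKM + 1) with a Benjamini-Hochberg adjusted p under 0.05 over all 13483 genes tested. The share higher, 29.2%, was close to the 25.3% of all genes that were called higher in this fit. The share lower was 0%, against 12.1% of all genes called lower. At an unadjusted p under 0.05, 38 members were higher and 0 lower, and no other tool was run. The change was positive for 79 members and negative for 10. The median log2 change of the members was 0.30, that of all genes tested 0.09, and the difference between these medians stayed between 0.21 and 0.27 under the 4 other scalings of the libraries. In 32 members (36.0%) every knockout value lay above every control value, against 26.1% of all genes, and in 0 members did every knockout value lie below, against 12.5%. Without control replicate 1 the count higher was 15 (16.9%, against 20.6% of all genes), and without control replicate 2 it was 14 (15.7%, against 20.5%), so in these fits the members' share lay below that of all genes. Scaling every library to the same FPKM total moved the median of all genes to 0.73 and called 87 members (97.8%) and 70.8% of all genes higher. Quantile normalization called 41 members (46.1%) and 19.7% of all genes higher. With small RNAs removed these were 31 members (34.8%) and 16.8% of all genes, so in both the members' share lay above that of all genes. Median-ratio scaling left the split of all genes at 2633 higher and 2448 lower, against 3417 and 1635 as deposited, and 21 of the 26 members were called under every scaling.

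**Figure D1:**
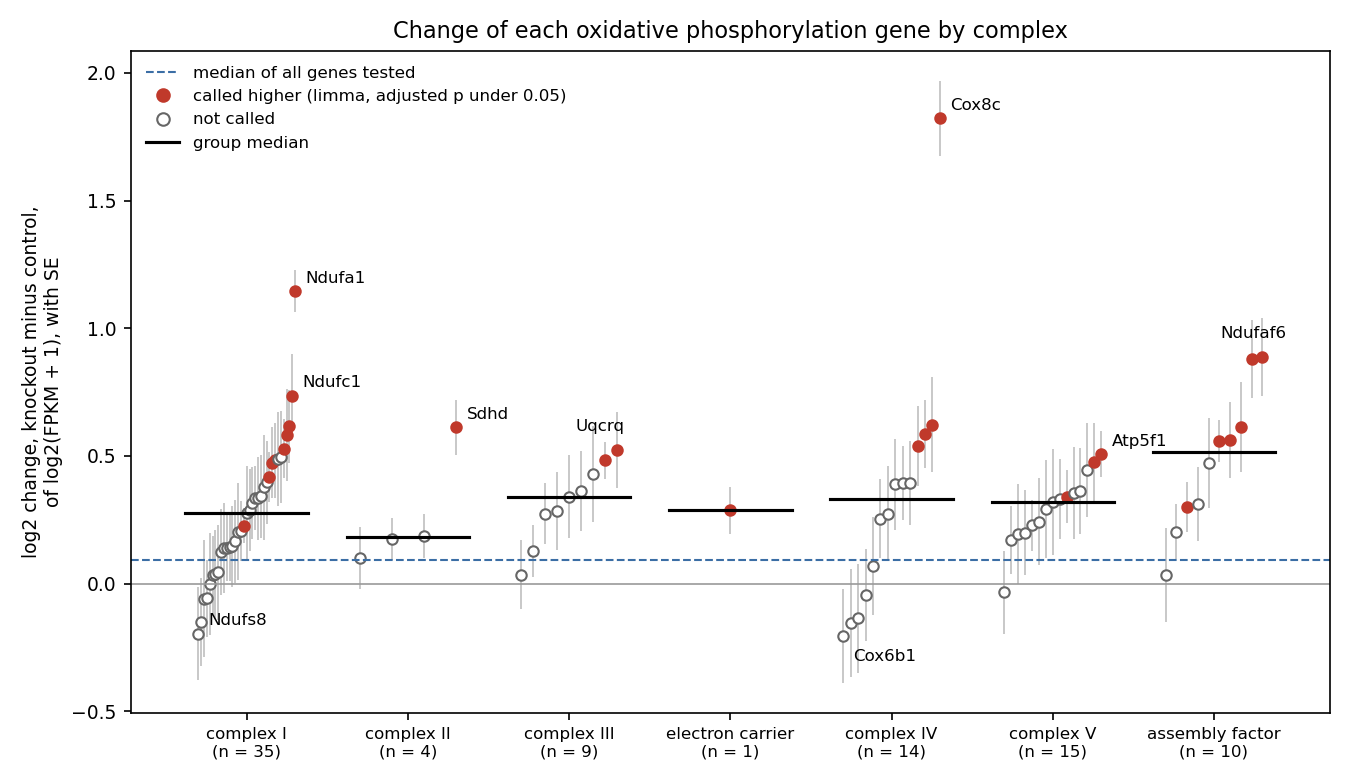
Log2 change of log2(FPKM + 1), knockout minus control, on the vertical axis, with its standard error for each gene, by complex on the horizontal axis. Filled points are the genes called higher by limma, open points those not called, black bars group medians and the dashed line the median of all 13483 genes tested; Cox8c at 1.82 and Ndufa1 at 1.15 lie above all other members. The processed pseudogene Atp5l2 is not drawn.

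Transcript length and 1 library moved with this result. The members were short, with a median length of 681 bases against 2338 bases over all genes tested. Of the 89, 60 were under 1000 bases, 26 were from 1000 to under 2000 and 3 from 2000 to under 4000. Among all genes tested under 1000 bases, 4.05% were called lower and the median log2 change was 0.22. Among genes of at least 4000 bases, 20.3% were lower and the median was -0.08. Knockout replicate 2 was the highest of the 8 libraries for 85 of the 89 members. That library was also the highest for 4993 of all 13483 genes tested and for 1244 of the 1976 under 1000 bases. Its level was a median of 1.5 times the mean of the other 3 knockouts for the members, against 1.05 times for all genes. The same ratio over all genes fell with length, from 1.38 under 1000 bases to 1.23, 0.999 and 0.787 in the longer classes. Without that library 26 members were higher (28.6% of all genes) and 2 lower (15.0% of all genes), and 24 of the higher calls were shared with the full fit. The median change of the members then was 0.17, with 0.08 for all genes and 0.12 for all genes under 1000 bases. The genes called lower without it were the complex I genes Ndufs8 (log2 change -0.37, adjusted p 0.041) and Ndufa11 (-0.32, adjusted p 0.049). Ndufs6 and Ndufs4, a pair of accessory subunits of complex I, gained calls without it, while Cycs and Ndufaf3 lost their calls. The part of transcript length in the change between the groups was not tested.

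**Figure D2:**
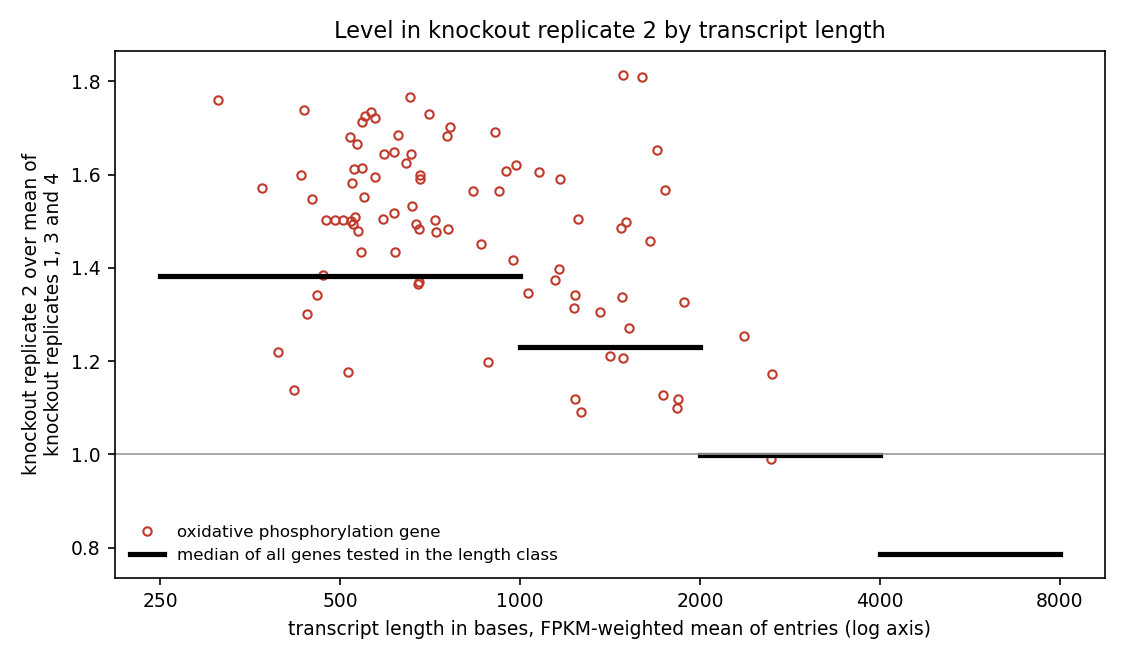
FPKM in knockout replicate 2 divided by the mean of knockout replicates 1, 3 and 4, on the vertical axis, against transcript length in bases on a log axis. Circles are the 89 genes and black bars the medians of all tested genes in 4 length classes (1.38, 1.23, 0.999 and 0.787, the last class being open above 4000 bases); 3 of the 89 lie at or beyond 2000 bases.

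The spread between libraries was shared by nearly all members. Relative to the control mean, the median member stood at -0.13 and -0.15 on the log2 scale in control replicates 1 and 2, and at 0.10 and 0.16 in control replicates 3 and 4. In knockout replicates 1, 3 and 4 it stood at 0.07, 0.24 and 0.16, and in knockout replicate 2 at 0.72. Knockout replicate 1 was the lowest knockout for 69 members. The FPKM of all 89 genes summed to 8526, 8362, 9949 and 10505 in the controls and to 9600, 15429, 10692 and 10185 in the knockouts. The controls and knockouts overlapped in this sum, whose knockout to control ratio was 1.23 and, without knockout replicate 2, 1.09. By complex the ratio of summed FPKM was 1.22 for complex I, 1.19 for complex II, 1.27 for complex III, 1.17 for complex IV, 1.25 for complex V and 1.48 for the assembly factors. Without knockout replicate 2 these ratios were 1.09, 1.13, 1.13, 1.03, 1.10 and 1.32. The groups did not overlap in the sum of the assembly factors, at 206.7, 213.5, 256.0 and 256.2 FPKM in the controls and 299.3, 457.3, 321.2 and 303.4 FPKM in the knockouts. Nor did they in that of complex II, at 289.4 to 317.9 and 334.6 to 424.5 FPKM, and they did in those of complexes I, III, IV and V.

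**Figure D3:**
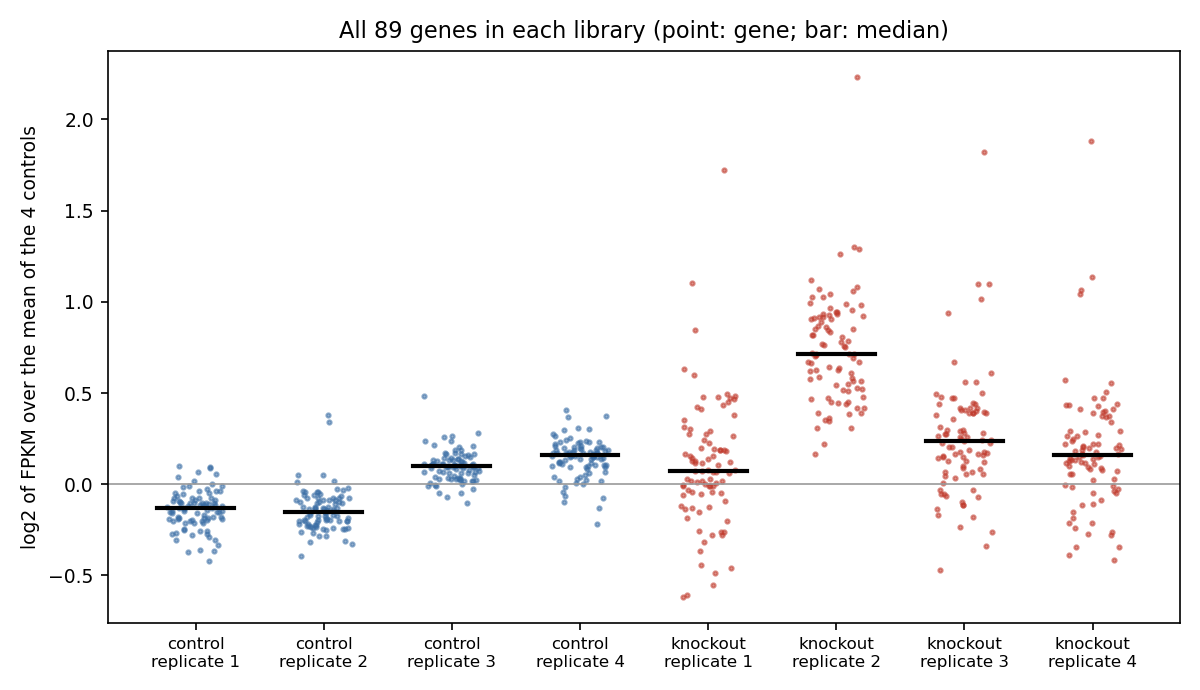
Log2 of each gene's FPKM over its mean in the 4 controls, on the vertical axis, in each of the 8 libraries on the horizontal axis. Points are the 89 genes and bars their medians, which run from -0.15 to 0.16 in the controls and from 0.07 to 0.24 in knockout replicates 1, 3 and 4, with knockout replicate 2 at 0.72.

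Levels differed between genes more than between groups. On the FPKM scale, which is per length, the most abundant members by the mean over all 8 libraries were Atp5b, the catalytic beta subunit of ATP synthase, at 489.5 ± 64.1 in the controls (SD, n = 4), Cox7c of complex IV at 319.6 ± 43.6 and the complex III hinge protein Uqcrh at 296.6 ± 24.7. The least abundant by that mean were the assembly factor Ndufaf3, at 1.81 ± 0.187 in the controls, Atp5l2 at 3.68 ± 0.548 and Atp5s, a coupling factor-like gene, at 4.50 ± 0.716. In the controls alone the assembly factor Ndufaf6, at 3.05 ± 0.873, was also below Atp5l2. The median control level was 166.2 FPKM for complex V, 161.9 for complex IV, 109.9 for complex III, 73.3 for complex II, 61.1 for complex I and 12.3 for the assembly factors. The assembly factors ranged from 1.81 to 101.7 FPKM, which overlapped the range of each complex.

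Complex I, the entry point for NADH, had 9 of 35 genes higher and 0 lower. The share higher was 25.7%, near the 25.3% of all genes, and 12.1% of all genes were lower. Ndufa1, a small membrane-arm subunit encoded on the X chromosome (ENSMUSG00000016427, GRCm38 chrX:37187588-37191163, minus strand), stood out among them. It was at 45.7, 44.9, 42.9 and 50.6 FPKM in the controls and at 98.9, 113.3, 98.5 and 101.3 FPKM in the knockouts. Every knockout lay above every control, and knockout replicate 2 was 1.14 times the mean of the other knockouts. The means of 46.0 ± 3.26 and 103.0 ± 7.0 FPKM gave a 2.24-fold rise (log2 change 1.15 ± 0.08 SE, limma adjusted p 1.7e-05), which was 2.16-fold without knockout replicate 2. The other X-linked members, Ndufb11 of complex I and Cox7b of complex IV, were not called, with log2 changes of 0.20 and -0.15 (0.56 for Cox7b under equal totals).

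Further accessory subunits of complex I that rose were Ndufc1, Ndufa5, Ndufb4, Ndufs5 and Ndufa3. Ndufc1, in the membrane arm, went from 34.4, 36.4, 37.0 and 41.3 FPKM in the controls to 52.0, 91.0, 59.2 and 54.8 FPKM in the knockouts (log2 change 0.74 ± 0.16, adjusted p 0.0068). Ndufa5, in the peripheral arm, went from 58.8, 54.0, 65.3 and 66.1 to 84.6, 127.3, 84.8 and 84.7 FPKM (0.62 ± 0.14, adjusted p 0.0084). In both genes the 3 other knockouts agreed closely and lay above all controls, and knockout replicate 2 was higher still. Most of their FPKM came from entries annotated as not protein-coding: the coding entries held 15.9% of Ndufc1 and 6.98% of Ndufa5 in the controls, and these too were higher in every knockout than in any control. Ndufa3 rose from 139.1 ± 12.9 to 185.7 ± 16.4 FPKM (0.42 ± 0.10, adjusted p 0.0094). Ndufs5 and Ndufb4 rose by 0.48 and 0.58 (adjusted p 0.029 and 0.031), calls that were lost without control replicate 1 or 2, and the groups overlapped for Ndufb4. Of 21 accessory subunits grouped here under the membrane arm, Ndufa9 among them, 5 (23.8%) were higher, with a median change of 0.29. Of 7 grouped under the peripheral arm 1 (14.3%) was higher, with a median of 0.14. Over all genes tested, 25.3% were higher. Counting Ndufa9, which was not called, in the peripheral arm was not tried. Of the 26 members called, 12 had coding entries only, so their coding value is the one already called. In the other 14 the mean of the coding entries was higher in the knockout, in 13 without overlap between the groups, and 6 of the 14 had under 50% of their control FPKM there. Reads shared among entries, or with processed pseudogenes, can be divided in more than 1 way, so this split is uncertain.

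Of the 7 nuclear core subunits of complex I, which carry electrons from NADH towards coenzyme Q, 3 were higher. They were 2 of 3 (66.7%) in the NADH-oxidising module and 1 of 4 (25.0%) in the quinone-reducing module, against 25.3% of all genes. Ndufv2, of the NADH-oxidising module, rose from 60.7 ± 5.23 to 88.5 ± 14.1 FPKM (0.53 ± 0.12, adjusted p 0.0063), and the quinone-module subunit Ndufs3 from 71.8 ± 8.61 to 100.8 ± 19.7 FPKM (0.47 ± 0.14, adjusted p 0.025), the latter not called without control replicate 1 or 2. Ndufs1, the largest iron-sulfur subunit, was at 56.1, 50.2, 51.4 and 51.7 FPKM in the controls and at 64.0, 60.9, 61.2 and 59.4 FPKM in the knockouts (0.23 ± 0.07, adjusted p 0.027). Its groups did not overlap, knockout replicate 2 was not the highest, and the call was lost under 3 scalings and in 5 of 8 fits that left out a library. Its neighbour on the opposite strand, Eef1b2, was at 420.1 and 560.4 FPKM, with the strand setting of the counting not given in the sources used here. Ndufv1, the flavin-binding partner of Ndufv2, was not called, at 122.7 ± 15.2 and 119.1 ± 26.4 FPKM (-0.06 ± 0.15, adjusted p 0.79; 0.66 under equal totals). Ndufs7 and Ndufs8 were not called either and had log2 changes of -0.002 and -0.20 (0.65 and 0.52 under equal totals). The entries of Ndufs7 went different ways. Its 1 coding entry was at 4.47 ± 0.519 FPKM in the controls and 2.57 ± 0.096 FPKM in the knockouts. Its 4 other entries summed to 5.88 ± 1.82 and 7.88 ± 2.89 FPKM. With only the most abundant entry of each gene used, Ndufs7 was called lower. The lowest change of the complex was that of Ndufs8, at 69.3, 65.6, 88.9 and 91.8 FPKM in the controls and 56.3, 97.8, 62.4 and 62.2 FPKM in the knockouts, where the 3 libraries other than replicate 2 lay below all controls. Without knockout replicate 2 it was called lower, as given above. Without control replicate 2 the complex had 5 genes higher.

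Of the 7 complex I assembly factors with Ndufaf symbols, 5 were higher (71.4%, against 25.3% of all genes). Ndufaf1, which works on the early membrane-arm intermediate, went from 6.08, 9.88, 8.57 and 6.71 FPKM to 12.1, 16.1, 15.8 and 16.4 FPKM (1.93-fold, log2 change 0.88 ± 0.15, adjusted p 0.0019). Ndufaf6 went from 2.28, 2.60, 4.27 and 3.05 FPKM to 5.50, 7.33, 6.54 and 6.30 FPKM (2.10-fold, 0.89 ± 0.15, adjusted p 0.0018). Ndufaf4, a partner in assembling the peripheral arm, went from 14.0, 12.4, 14.6 and 14.2 FPKM to 19.2, 22.3, 21.1 and 20.5 FPKM (0.56 ± 0.08, adjusted p 0.00079). In these 3 genes the groups were separate, and knockout replicate 2 was 1.09, 1.20 and 1.10 times the mean of the other knockouts. Ndufaf2 rose from 46.4 ± 5.98 to 69.6 ± 15.1 FPKM (0.56 ± 0.15, adjusted p 0.015). Ndufaf3 was at 1.81 ± 0.187 and 2.47 ± 0.277 FPKM (0.30 ± 0.10, adjusted p 0.037), from about 140 to 211 fragments a library. It overlaps Impdh2, a gene on the opposite strand at 181.4 and 195.5 FPKM, and lost its call in 6 of 8 fits that left out a library. Ndufaf5 and Ndufaf7 were not called (0.47 and 0.31). Of the 3 other factors, Cox7a2l, grouped here as a factor linked to supercomplexes, rose from 101.7 ± 16.1 to 158.2 ± 41.9 FPKM (0.61 ± 0.18, adjusted p 0.023), a call lost without control replicate 1 or 2. Neither Atp5s nor Atp5sl was called (0.03 and 0.20).

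Complex II, which feeds electrons from succinate, had 1 of 4 genes higher (25.0%, against 25.3% of all genes). Sdhd, a membrane anchor subunit (ENSMUSG00000000171, GRCm38 chr9:50596357-50603812, minus strand), was at 51.1, 50.6, 57.2 and 57.9 FPKM in the controls and at 76.4, 102.0, 79.9 and 76.9 FPKM in the knockouts. The groups were separate, and the rise was 1.55-fold (0.61 ± 0.11, adjusted p 0.0020), or 1.43-fold without knockout replicate 2. The other anchor, Sdhc, was at 66.4 ± 5.24 and 75.7 ± 5.39 FPKM (0.19 ± 0.08, adjusted p 0.11). The catalytic subunits were not called either: the flavoprotein Sdha was at 103.1 ± 4.70 and 116.7 ± 10.1 FPKM (0.17 ± 0.08, adjusted p 0.13) and the iron-sulfur subunit Sdhb at 80.2 ± 6.58 and 86.8 ± 15.1 FPKM (0.10 ± 0.12, adjusted p 0.55). The difference between Sdhd and its partners was not tested.

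Complex III, which passes electrons from coenzyme Q to cytochrome c, had 2 of 9 genes higher (22.2%, against 25.3% of all genes). The core protein Uqcrc2 (ENSMUSG00000030884, GRCm38 chr7:120635176-120659524, plus strand) was at 58.5, 53.3, 55.8 and 57.5 FPKM in the controls and at 78.6, 86.0, 78.1 and 73.8 FPKM in the knockouts (1.41-fold, 0.48 ± 0.07, adjusted p 0.00093). The other core protein, Uqcrc1, was at 78.0, 82.7, 92.1 and 92.4 FPKM in the controls and at 77.6, 117.1, 83.1 and 80.0 FPKM in the knockouts (0.03 ± 0.13, adjusted p 0.86). The groups were apart for Uqcrc2 and overlapped for Uqcrc1, whose knockout replicates 1, 3 and 4 lay below the upper pair of controls and replicate 1 just below all controls. The small subunit Uqcrq rose from 69.6 ± 8.07 to 101.7 ± 23.1 FPKM (0.52 ± 0.15, adjusted p 0.022), a call lost without control replicate 1 or 2. The catalytic subunits cytochrome c1 (Cyc1) and the Rieske protein (Uqcrfs1) had log2 changes of 0.13 ± 0.10 and 0.27 ± 0.12 (adjusted p 0.36 and 0.099). Of the 5 small subunits 1 was higher, with a median change of 0.36. Cycs, the somatic cytochrome c, was at 49.1 ± 4.87 and 60.0 ± 4.42 FPKM (0.29 ± 0.09, adjusted p 0.037), and lost its call in 6 of 8 fits that left out a library.

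In complex IV, cytochrome c oxidase, 4 of 14 genes were higher (28.6%, against 25.3% of all genes) and 0 lower. They were Cox8c, Cox7b2 and Cox7a1 among the 4 isoforms with restricted expression, and Ndufa4 among the 10 broadly expressed subunits. Cox8c (ENSMUSG00000043319, GRCm38 chr12:102899316-102900526, plus strand), the isoform of subunit 8 found in testis, was at 7.86, 7.29, 10.8 and 10.2 FPKM in the controls and at 29.8, 42.5, 32.0 and 33.3 FPKM in the knockouts. Every knockout lay far above every control. The rise was 3.81-fold (1.82 ± 0.15, adjusted p 2.7e-05), or 3.51-fold without knockout replicate 2, and rested on about 142 to 601 fragments a library. Cox7b2, the testis form of subunit 7b, was at 61.9, 51.7, 67.7 and 77.9 FPKM in the controls and at 80.5, 122.7, 88.1 and 88.0 FPKM in the knockouts (0.54 ± 0.16, adjusted p 0.024). Its groups were separated by less than 3 FPKM, and the call was lost without control replicate 1 or 2. Cox7a1, known from heart and muscle, was at 9.18, 8.37, 9.73 and 13.5 FPKM and at 15.4, 18.9, 19.5 and 11.4 FPKM (0.62 ± 0.18, adjusted p 0.026), with overlapping groups, not called without control replicate 1, 2 or 3 or knockout replicate 3. Cox6b2, the testis form of subunit 6b, missed the threshold at 12.5, 11.6, 12.1 and 10.7 FPKM and 12.6, 21.3, 15.6 and 14.3 FPKM (0.39 ± 0.14, adjusted p 0.056), although every knockout lay above every control. Without control replicate 1 or 2 the complex had 2 genes higher, the restricted isoform Cox8c and the broadly expressed Ndufa4.

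The broad partners of these isoforms were not called. Cox8a was at 182.4, 184.4, 240.4 and 238.6 FPKM in the controls and at 138.8, 289.3, 197.5 and 166.3 FPKM in the knockouts (-0.14 ± 0.21, adjusted p 0.65). Cox7b was at 47.2, 49.2, 64.9 and 72.1 FPKM and at 38.05, 76.4, 49.5 and 48.7 FPKM (-0.15 ± 0.21, adjusted p 0.60). Cox6b1 was at 205.1, 205.9, 289.0 and 303.4 FPKM and at 171.2, 281.2, 209.3 and 207.8 FPKM (-0.20 ± 0.18, adjusted p 0.41). The groups overlapped in all 3, and the negative signs turned positive when libraries were scaled to equal totals (0.58, 0.56 and 0.52). Cox7a2 was at 130.5 ± 14.1 and 158.2 ± 37.6 FPKM (0.25 ± 0.15, adjusted p 0.22). Among other broad subunits, Ndufa4 rose from 193.3 ± 20.1 to 292.3 ± 51.8 FPKM (0.58 ± 0.13, adjusted p 0.0078), Cox5a was at 0.39 ± 0.18 (adjusted p 0.12), and Cox6c, Cox7c, Cox6a1 and Cox5b were at log2 changes of 0.39, 0.27, 0.07 and -0.04 (0.68 for Cox5b under equal totals), none called.

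**Figure D4:**
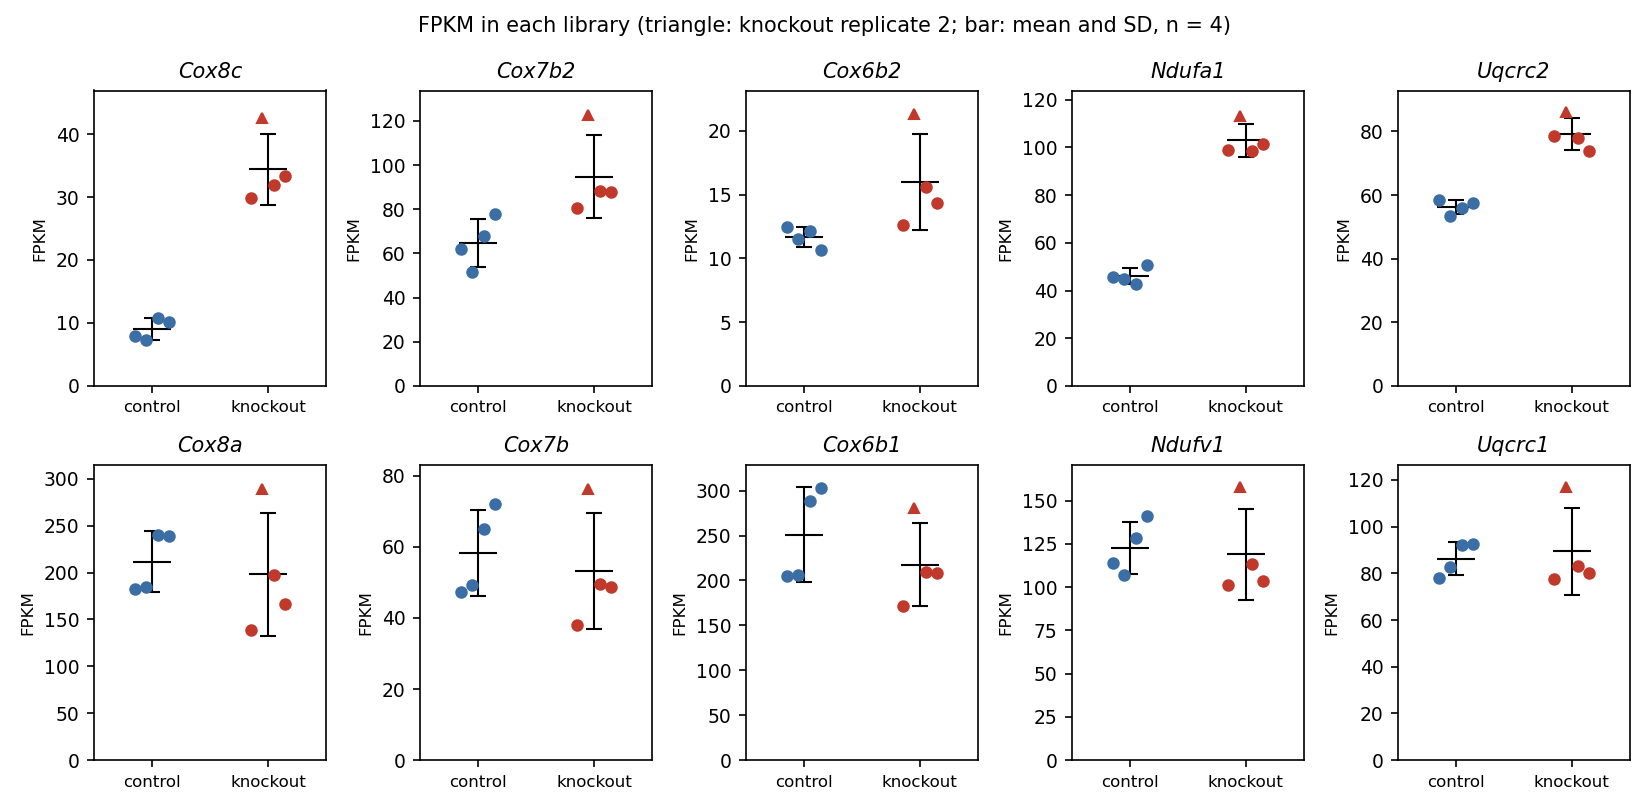
FPKM, on the vertical axes that start at 0, of 10 genes in the 4 control and 4 knockout libraries, with mean and SD. The upper row holds Cox8c, Cox7b2, Cox6b2, Ndufa1 and Uqcrc2, in which every knockout lay above every control; the lower row holds Cox8a, Cox7b, Cox6b1, Ndufv1 and Uqcrc1, in which the groups overlapped and knockout replicate 2 (triangle) was the highest knockout.

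The share of an isoform within its pair does not change when a library is multiplied by a constant. The share of Cox8c in the sum of Cox8c and Cox8a was 4.13%, 3.80%, 4.31% and 4.08% in the controls and 17.7%, 12.8%, 13.9% and 16.7% in the knockouts. That of Cox7b2 in its sum with Cox7b was 56.7%, 51.2%, 51.1% and 51.9% in the controls and 67.9%, 61.6%, 64.0% and 64.4% in the knockouts. That of Cox6b2 in its sum with Cox6b1 was 4.62% ± 1.09 and 6.82% ± 0.263 (SD, n = 4 each). In these 3 pairs every knockout library lay above every control, and knockout replicate 2 was not the highest for Cox8c or Cox7b2. The share of Cox7a1 overlapped, at 7.18% ± 0.742 and 9.48% ± 2.09. For cytochrome c the testis form Cyct made up 52.2%, 55.4%, 57.0% and 59.6% of Cyct and Cycs in the controls and 67.0%, 75.1%, 69.0% and 67.8% in the knockouts, again without overlap. These shares were given no test.

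**Figure D5:**
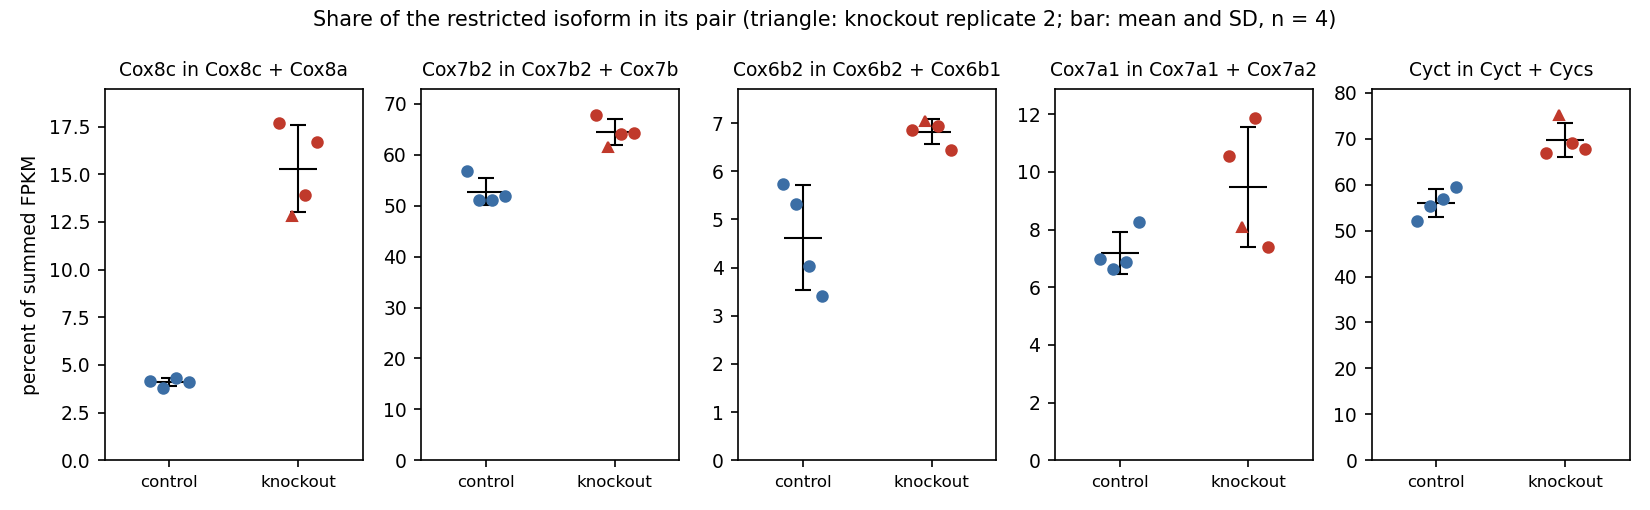
Share of the restricted isoform in the summed FPKM of its pair, in percent on vertical axes that start at 0, for 4 pairs of complex IV and for cytochrome c in the control and knockout libraries, with mean and SD. The groups are apart for Cox8c, Cox7b2, Cox6b2 and Cyct and overlap for Cox7a1.

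Complex V, the ATP synthase, had 3 of 15 genes higher, a share below the 25.3% of all genes. They were Atp5f1, Atp5j and Atp5g2. Atp5f1, subunit b of the peripheral stalk (ENSMUSG00000000563, GRCm38 chr3:105942698-105960099, minus strand), was at 137.9, 126.3, 136.2 and 135.4 FPKM in the controls and at 182.8, 220.1, 181.7 and 180.9 FPKM in the knockouts (1.43-fold, 0.51 ± 0.09, adjusted p 0.0020). Apart from knockout replicate 2 the knockouts agreed within 2 FPKM, all above the controls. Its coding entry rose less in FPKM, from 60.1 ± 1.39 to 77.2 ± 6.44, than its other entries, from 73.9 ± 5.54 to 114.2 ± 22.8, a difference that was not tested. Atp5j, factor 6 of the same stalk, rose from 115.7 ± 11.7 to 163.5 ± 38.6 FPKM (0.47 ± 0.15, adjusted p 0.036), but the call was lost without control replicate 1, 2 or 3 or knockout replicate 3 or 4. The F1 head genes were not called: Atp5a1 was at 244.0 ± 10.0 and 287.2 ± 34.5 FPKM (0.23 ± 0.10, adjusted p 0.10) and Atp5b at 489.5 ± 64.1 and 629.6 ± 213.4 FPKM (0.32 ± 0.21, adjusted p 0.26). Changes of the 5 head and central stalk genes ran from 0.17 to 0.44, and those of the 3 other membrane subunits from 0.29 to 0.36, with 0 called of either. The complex had 1 gene higher when control replicate 1, control replicate 2 or knockout replicate 3 was left out.

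Subunit c of the rotor ring is made from 3 genes whose mature protein is the same. Atp5g2 rose from 92.4, 88.5, 101.9 and 96.6 FPKM to 112.0, 146.4, 115.0 and 110.5 FPKM (0.34 ± 0.10, adjusted p 0.029), a call lost without control replicate 1, 2 or 4 or knockout replicate 3. Atp5g1 was at 209.0 ± 31.9 and 205.7 ± 45.9 FPKM (-0.03 ± 0.16, adjusted p 0.89; 0.69 under equal totals), and Atp5g3 at 166.2 ± 20.2 and 211.7 ± 48.7 FPKM (0.33 ± 0.16, adjusted p 0.13). As a share of the 3, Atp5g1 made up 42.1%, 44.0%, 46.3% and 45.0% in the controls and 37.5%, 38.9%, 37.7% and 38.4% in the knockouts, every knockout below every control. The share of Atp5g3 was 35.4% ± 1.28 and 39.2% ± 1.0, without overlap, and that of Atp5g2 20.3% ± 1.33 and 22.7% ± 1.39, with overlap.

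Assembly factors whose symbols lie outside the rule numbered 37, of which 21 (56.8%, against 25.3% of all genes) were higher and 1 lower, by the same test. The list was set with earlier results of these data known. Tmem126a, a complex I assembly factor, went from 21.7, 22.3, 26.4 and 21.3 FPKM to 48.3, 64.3, 53.0 and 49.8 FPKM (1.19 ± 0.11, adjusted p 5.1e-05). The F1 chaperone Atpaf1 rose from 26.3 ± 2.03 to 48.7 ± 3.60 FPKM (0.86 ± 0.08, adjusted p 7.6e-05), and Cox20, which stabilises a complex IV subunit, from 6.60 ± 0.686 to 12.5 ± 1.09 FPKM (0.83 ± 0.10, adjusted p 0.00026). The gene that fell was Ttc19, needed for complex III, from 43.5 ± 3.73 to 34.2 ± 1.27 FPKM (-0.33 ± 0.08, adjusted p 0.011). The median change of this list was 0.34, and without knockout replicate 2 the count was again 21 higher and 1 lower. Without control replicate 1 it was 12 higher, and without control replicate 2 it was 13.

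Lists of genes around the chain were read against the 25.3% of all genes higher and 12.1% lower, with no test of a list. Of 20 other respiratory chain genes 8 (40.0%) were higher and 0 lower, by the same limma test, with 1 lower without knockout replicate 2 and 0 lower at an unadjusted p under 0.05. They included the testis cytochrome c gene Cyct, from 63.2 ± 11.5 to 142.2 ± 38.5 FPKM (1.14 ± 0.19, adjusted p 0.0014), the uncoupling protein gene Ucp2, from 4.89 ± 1.23 to 14.1 ± 2.35 FPKM (1.37 ± 0.17, adjusted p 0.00028), and the coenzyme Q synthesis genes Coq3 (0.71) and Pdss1 (0.66). Of 14 genes of the tricarboxylic acid cycle, 4 (28.6%, near the share of all genes) were higher, the dehydrogenase subunit genes Dld (0.50) and Idh3g (0.39) and the succinyl-CoA ligase genes Suclg1 (0.46) and Suclg2 (0.25). Suclg1 lost its call when control replicate 1 or 2, or knockout replicate 3, was left out. Of 12 genes of pyruvate entry, 3 (25.0%) were higher and 2 (16.7%) lower, again near the shares of all genes. The germ cell isoform of pyruvate dehydrogenase, Pdha2, rose from 9.98 ± 1.90 to 22.5 ± 1.02 FPKM (1.11 ± 0.12, adjusted p 0.00012), as did the pyruvate carrier Mpc1 (0.80) and Pdhx (0.30). The inhibitory kinase Pdk1 fell from 54.3 ± 4.20 to 34.6 ± 1.39 FPKM (-0.63 ± 0.08, adjusted p 0.00028), but stood at 0.074 when libraries were scaled to equal totals, and Pdk2 was lower too (-0.34).

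Of 15 genes that copy or transcribe mitochondrial DNA, 6 (40.0%) were higher and 1 (6.67%) lower, against 25.3% and 12.1% of all genes. Slirp, an RNA-binding protein of mitochondrial transcripts, was at 43.4, 43.1, 55.2 and 53.9 FPKM in the controls and at 91.6, 149.8, 95.3 and 100.2 FPKM in the knockouts (1.12 ± 0.16, adjusted p 0.00072), and the elongation factor Tefm rose by 0.74. The polymerase gene Polg fell from 60.2 ± 4.54 to 41.1 ± 1.26 FPKM (-0.54 ± 0.07, adjusted p 0.00057), a direction that turned to 0.17 under equal totals and to 0.0072 when only its most abundant entry was used. Of 12 regulators of mitochondrial biogenesis 1 (8.33%) was higher, Tfam, the packaging factor of mitochondrial DNA (0.37 ± 0.10, adjusted p 0.016). None of them (0) was lower, with 1 lower at an unadjusted p under 0.05 and 2 lower without knockout replicate 2. The call of Tfam was lost when small RNAs were removed and when the most abundant entry alone was used. Of 16 outer membrane, import and carrier genes, 6 (37.5%) were higher and 2 (12.5%) lower, the latter near the share of all genes. The import receptor Tomm70a (0.62), the channel Vdac2 (0.49) and the ADP/ATP carrier Slc25a4 (0.66) were among the higher. The channel Vdac1 (-0.44) and the import pore gene Tomm40 (-0.34) were the lower. Median changes of these lists were 0.17 for the other respiratory chain genes, 0.20 for the cycle, 0.07 for pyruvate entry, 0.22 for mitochondrial DNA, 0.05 for the regulators and 0.19 for import, against 0.09 for all genes tested.

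Which members held their call across all settings could be counted. Of the 26 genes higher, 14 were called in all 8 fits that left out a library, 24 without knockout replicate 2 and 13 under all 18 alternatives to the fit at the same threshold. These 13 were Ndufa1, Ndufa3, Ndufa5, Ndufc1 and Ndufv2 of complex I, Ndufaf1, Ndufaf2 and Ndufaf4, Sdhd, Uqcrc2, Cox8c, Ndufa4 and Atp5f1. Ndufaf6 was lost only where a mean of 5 FPKM was required, below which it was not tested. How many of all 3417 genes called higher kept their calls in the same way was not counted. Whether the members held their calls more or less often than other genes is therefore not known.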

How the data were processed

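Messenger RNA of sorted germ cells was measured in 4 control and 4 Kdm1a knockout libraries. The authors deposited FPKM per transcript, with 45550 entries; the submitters' processing notes list mm10 with Bowtie, TopHat, Cuffdiff and Cufflinks (versions, annotation and strand setting not given in the sources used here). They are estimates, so no count model was used.

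Entries were summed to 17589 genes, and 13483 with a mean of at least 1 FPKM were fitted with limma 3.58.1 in R 4.3.3 (trend, group only, two-sided) on log2(FPKM + 1), pseudocount 1, with Benjamini-Hochberg adjustment and a threshold of 0.05. Changes are knockout minus control on that scale, ± standard error, and understate those of low genes; folds are ratios of mean FPKM; means are ± SD, n = 4. Positions, gene types and lengths came from GENCODE M21 (17257 genes found), lengths as FPKM-weighted means of entries. The fit was tested on simulated data. Depth was read from FPKM steps (73.9% to 81.9% of low values within 0.1 fragment of whole, 20% by chance). Shares and sums were given no test.

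Genes named were up to 4 called per complex, catalytic and carrier genes, restricted isoforms with partners, c-ring genes, genes next to the minimum, the 3 most and least abundant, up to 3 called per other list, and Kdm1a; all others were chosen for naming once their values had been seen. The members and lists were chosen with earlier results of these data known. Same-numbered libraries are not stated to be paired. Alternatives changed the pseudocount, filter, scaling, small RNAs, trend, block, entry, libraries and threshold.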

Additional observations from a re-analysis of the deposited data

Results flagged for a closer look

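In these groups of 4 libraries a single library lay far from the other 3, by a gap above Dixon's 95% limit for 4 values. Of 178 groups tested over the members, 32 were so marked, where chance gives about 1 in 20, and 30 of the 31 knockout groups among them had knockout replicate 2 high. In that library Atp5a1 was at 338.6 FPKM, Atp5b at 947.5, Atp5f1 at 220.1, Atp5g2 at 146.4, Cox7a2 at 213.9 and Cox7c at 563.3. Ndufa4 was at 369.3 FPKM there, Ndufa5 at 127.3, Ndufaf2 at 92.2, Ndufv2 at 109.5, Sdhd at 102.0, Uqcrfs1 at 46.7 and Uqcrh at 529.8. Of the genes outside the family, Slc25a4 was at 33.8 FPKM and Slirp at 149.8 in the same library. Summed FPKM were 4730 for complex V and 457.3 for the assembly factors there.

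The remaining groups had another library apart. Kdm1a was high in control replicate 3 at 92.0 FPKM, as were Ndufaf3 at 2.09 FPKM and Pdha2 at 12.8 FPKM. Ndufaf1 was low in knockout replicate 1 at 12.1 FPKM, still above every control.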

How the results depend on the processing

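The counts of genes higher moved with the scaling, the threshold and the libraries used. The count over all members was 87 under equal totals (70.8% of all genes), 41 under quantile normalization (19.7%), 13 at an adjusted p under 0.01 (15.5%) and 14 to 27 when a library was left out (19.7% to 28.6%). Equal totals gave 34 for complex I, 4 for complex II, 9 for complex III, 13 for complex IV, 15 for complex V, 10 for the assembly factors and 36 for those outside the rule, with 0 lower in the last list. Quantile normalization gave 14, 6 and 8 for complexes I, III and V, median-ratio scaling 1 for complex V, and removing small RNAs 4 for complex III and 13 for the outside factors. An adjusted p under 0.01 gave 5, 1, 2 and 1 for complexes I, III, IV and V, 3 for the assembly factors and 11 higher and 0 lower for those outside. Leaving out a library gave 5 to 11, 1 to 2, 2 to 5 and 1 to 3 for complexes I, III, IV and V, 4 to 7 for the assembly factors and 12 to 21 for the outside factors. Members lower, all in complex I, numbered 1 with the most abundant entry (Ndufs7), 1 with small RNAs removed (Ndufs8) and 0 to 2 when a library was left out. Summed FPKM ratios under equal totals were 2.00 over all members and 1.99, 1.96, 2.07, 1.91 and 2.03 for complexes I to V, with 2.41 for the assembly factors. All 10 negative members turned positive under equal totals: Atp5g1 (0.69), Cox5b (0.68), Cox6b1 (0.52), Cox7b (0.56), Cox8a (0.58), Ndufa11 (0.54), Ndufs7 (0.65), Ndufs8 (0.52), Ndufv1 (0.66) and Ndufv3 (0.65). So did Pdk1 (0.074) and Polg (0.17), the latter also with the most abundant entry (0.0072). FPKM totals ran from 1067250 to 1767020 in the controls and from 700953 to 1106720 in the knockouts, so equal totals raise the knockouts against the controls on average; the cause of the other shifts was not tested.

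With the replicate number as a replicate block the count over all members was 15 (16.9%, against 22.1% of all genes), with 5, 2 and 1 for complexes I, IV and V. Same-numbered libraries are not stated to be paired, and the correlations of their deviations were 0.22, -0.12, -0.13 and -0.09. The pseudocount, the trend, either filter and Ndufa4 counted in complex I moved none of these counts beyond 1.5 times. Of 42 named genes called, the block kept 33 and each scaling 36 to 40. Low members such as Cox8c (142 to 601 fragments) and Atp5l2 (27 to 52) were limited by depth.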
